A study of Homo sapiens with 6 samples.

Results

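The genes described here build, fold, check and clear proteins of the endoplasmic reticulum (ER). They are 42 of the 19727 genes in the deposited table, chosen by symbol from a list of 3 ER stress sensors and their transcription factor, 13 ER chaperones and their partners, 7 enzymes of disulfide bond formation, 9 genes of ER-associated degradation and 10 genes of the translocon and signal peptidase. All 42 were found in the table and all 42 passed the filter on low values, a mean of at least 1 FPKM (fragments counted per kilobase of transcript length and per 1000000 sequenced fragments) over the 6 libraries. The cells were DU145, an established human prostate cancer cell line. In 1 group they carried lentivirus-circCSPP1, which raises the circular RNA circCSPP1 made from exons of the CSPP1 gene, and their genotype is given as circCSPP1 overexpression. In the other they carried the control vector lentivirus-NC, with the genotype given as normal. Lentivirus-carrying cells were made into stable lines by treatment with puromycin, and 3 poly(A) RNA libraries were sequenced from each. The labels do not say whether the 3 libraries of a group came from separate cultures, so p-values measure the spread between these libraries, which may be technical.

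Proteins that enter the secretory pathway pass through the Sec61 channel of the ER membrane, lose their signal peptide to signal peptidase, and fold in the ER lumen with the help of chaperones and of enzymes that form disulfide bonds. Chains that fail to fold are moved back to the cytosol and destroyed, which is ER-associated degradation. When unfolded chains accumulate, the sensors ERN1 (IRE1α), ATF6 and EIF2AK3 (PERK) start the unfolded protein response, in which spliced XBP1 and cleaved ATF6 bind promoters of chaperone genes at sites known as the ER stress response element (ERSE) and its second form, ERSE-II. EIF2AK3 acts by another route, through phosphorylation of a translation factor and synthesis of ATF4.

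The promoter windows of these genes were searched on both strands for the letters of ERSE, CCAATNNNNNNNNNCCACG, and of ERSE-II, which are ATTGG, 1 base of any kind and CCACG, from 250 bases before to 50 bases after each RefSeq gene start (GRCh38.p14). A window was at hand for 38 of the 42 genes, all but DERL1, DERL3, SPCS1 and PDIA3. ERSE was found for 8 of the 38 (21.1%), against 25 of 27305 genes with a window (0.0916%), and ERSE-II for 3 of the 38 (7.89%), against 19 of the 27305 (0.0696%). The matches below belong to the genes that the results turn on. They are printed 5′ to 3′ on the strand that carries the motif, with 5 bases on each side, the coordinates are those of the motif alone, and capitals mark its fixed letters.
HSPA5 ERSE, chr9:125241391-125241409, minus strand: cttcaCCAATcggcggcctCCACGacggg
HSP90B1 ERSE, chr12:103930216-103930234, plus strand: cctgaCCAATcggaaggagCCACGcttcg
HSP90B1 ERSE, chr12:103930321-103930339, minus strand: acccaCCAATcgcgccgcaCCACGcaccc
CALR ERSE, chr19:12938384-12938402, minus strand: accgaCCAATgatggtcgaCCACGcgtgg
PDIA6 ERSE, chr2:10812853-10812871, minus strand: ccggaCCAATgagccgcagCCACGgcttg
XBP1 ERSE, chr22:28800603-28800621, minus strand: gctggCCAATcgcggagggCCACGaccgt
SDF2L1 ERSE-II, chr22:21642114-21642124, minus strand: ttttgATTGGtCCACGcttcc
HYOU1 ERSE-II, chr11:119057274-119057284, plus strand: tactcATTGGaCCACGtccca
HERPUD1 ERSE-II, chr16:56932025-56932035, plus strand: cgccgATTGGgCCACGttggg
The other ERSE matches were in the windows of CANX, CRELD2 and ERO1B, and HYOU1 held a second ERSE-II. The letters TGACGTGG, named UPRE, were found for 4 of the 38 genes (10.5%: DNAJC10, HYOU1, SSR3 and SSR4) against 0.927% of all genes with a window, and the match of HYOU1 overlaps its second ERSE-II. TGATGCAA, a C/EBP-ATF response element letter string named CARE, was found for HERPUD1 alone (2.63%, against 1.08% of all genes). ERSE and ERSE-II are known from promoters of chaperone genes, and the 27305 genes include the 38. The shares therefore describe the list and are not a test of enrichment. A match is a description of the letters in the window, not evidence of binding.

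The libraries held between 28600000 and 36400000 fragments, read from the whole-number steps of low FPKM values, and the depths of the groups overlapped. CSPP1, the parent gene of the overexpressed circle, was at 9.54 ± 0.493 FPKM in the controls and at 19.5 ± 4.44 FPKM with lentivirus-circCSPP1 (SD, n = 3), a log2 fold change of 0.94 (SE 0.170, limma, Benjamini-Hochberg adjusted p = 0.016), and FPKM does not separate linear, circular and vector transcripts. The epithelial keratin genes KRT8, KRT18 and KRT19 with EPCAM and CDH1 were all lower in lentivirus-circCSPP1 (5 of 5 genes at a limma adjusted p of 0.017 or less), and their summed level ran from 1046 to 1278 FPKM there and from 2271 to 2361 FPKM in lentivirus-NC. Of the 6 fibroblast markers 1 reached a mean of 1 FPKM (COL1A1), with a summed level of 2.98 to 4.39 FPKM in lentivirus-NC and 1.35 to 2.09 FPKM in lentivirus-circCSPP1, and LUM was listed at 0 throughout. Of the 9 leukocyte and plasma cell markers 2 did (CD14 and CD68), with summed levels of 47.5 to 52.8 and 37.3 to 52.9 FPKM, and CD3E, MS4A1 and JCHAIN were listed at 0. The part of these shifts in the ER genes was not tested, and in bulk RNA fewer cells of a kind and less RNA per cell cannot be told apart.

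Lentivirus-circCSPP1 replicate 1 stood apart from the other libraries of its group along transcript GC content. Over 7663 genes, GC content and length accounted for 47.5% of the variance of its departure from the mean of all 6 libraries. The shares were 24.1% and 5.10% for replicates 2 and 3 and 0.611% to 2.57% for the lentivirus-NC libraries. A departure from this mean also holds the difference between the groups. Its Spearman rho with GC content was 0.713 for lentivirus-circCSPP1 replicate 1, -0.547 for replicate 2 and -0.245 for replicate 3, so that replicate 2 leaned the other way. The ER genes span 35.8% to 65.5% GC. In all 26 members under 50% GC, replicate 1 was below the mean of replicates 2 and 3, by 0.09 to 0.75 on the log2(FPKM + 1) scale. Of the 16 members at or above 50% GC, 3 were below it, among them MANF by 0.52. Across the 42 genes the departure of replicate 1 had a Pearson r of 0.853 and a Spearman rho of 0.833 with GC content, and across 12305 tested genes r was 0.728 and rho 0.784. These correlations are across genes of 1 library, which are not independent replicates. The fold changes were more closely related to GC content without replicate 1 than with it, so the fit without replicate 1 is not free of GC content. Over all tested genes with a GC value, the log2 fold change had a rho of 0.054 with GC content from all 6 libraries and of -0.264 without replicate 1. Across the 42 genes these were 0.062 and -0.285. Where leaving out this library changed a call or moved an estimate below by over 1.5 times, the value without it is given too.

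**Figure D1:**
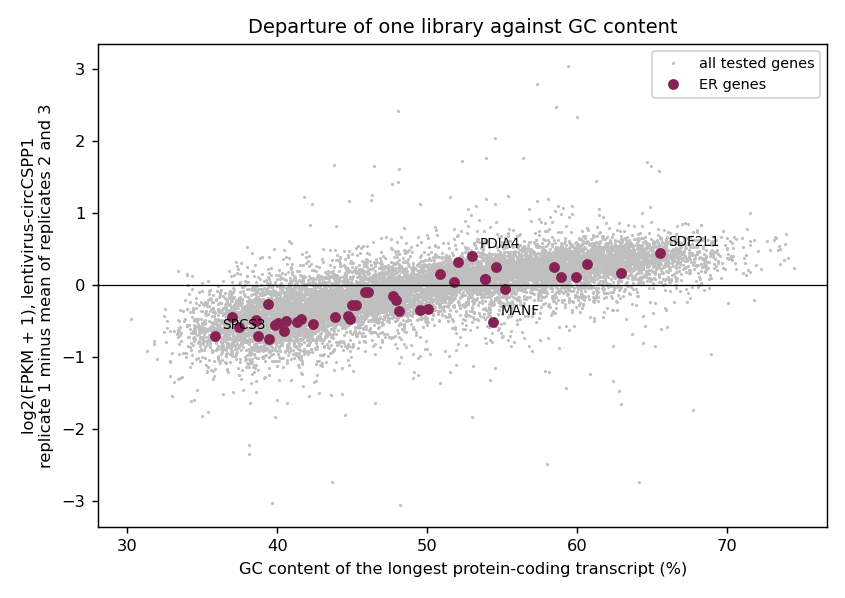
Each point is a gene, with the GC content of its longest protein-coding transcript (%) on the x axis and, on the y axis, log2(FPKM + 1) in lentivirus-circCSPP1 replicate 1 minus the mean of replicates 2 and 3. Grey points are all tested genes with a GC value and purple points the 42 ER genes, which rise from -0.71 for SPCS3 at 35.8% GC to 0.44 for SDF2L1 at 65.5% GC.

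Most of the 42 listed genes had lower estimated levels in lentivirus-circCSPP1. The estimate was below 0 for 35 of the 42 genes and above 0 for 7, with a median log2 fold change of -0.28 and a range of -1.02 to 0.41, beside a median of -0.03 over all 12322 tested genes. Over those 12322 genes, 6648 estimates were below 0 and 5674 above. In 22 of the 42 genes (52.4%) every lentivirus-circCSPP1 library was below every lentivirus-NC library, beside 20.5% of all tested genes, and in 2 genes (4.76%) every one was above, beside 16% of all tested genes. At a limma adjusted p of 0.05 over all tested genes, 6 of the 42 (14.3%) fell, beside 6.66% of all tested genes, and none rose, beside 4.69%. An unadjusted p under 0.05 was found for 21 of the 42, beside 28.2% of all tested genes. The 6 genes that fell were MANF and CALR among the chaperones, PDIA4, PDIA5 and PDIA6 among the disulfide enzymes, and EDEM2 in degradation. A further 10 members had an adjusted p between 0.05 and 0.10, 9 of them below 0 and 1 (ERN1) above 0. The share of all tested genes in this range was not counted, so these 10 have no background beside them.

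The count of genes past the threshold moved with the libraries used, while the median kept its sign. Without lentivirus-circCSPP1 replicate 1, 16 members fell and 2 rose (ATF6 and SSR3), beside 15.4% and 13.1% of all genes tested in that fit. All 6 of the genes above were among those that fell, and the median was -0.19. By class, 8 of the 13 chaperones, 4 of the 7 disulfide enzymes, 2 of the 9 degradation genes and 2 of the 10 translocon and signal peptidase genes fell in that fit. Leaving out another library gave 9 members that fell and 663 of all genes (lentivirus-circCSPP1 replicate 2), 1 and 264 (lentivirus-circCSPP1 replicate 3), 1 and 150 (lentivirus-NC replicate 1), 0 and 160 (lentivirus-NC replicate 2) and 1 and 239 (lentivirus-NC replicate 3). Values adjusted by loess for the GC content and length of the transcripts, an alternative chosen after the data had been seen, gave 20 members that fell, all 6 among them, and 3 that rose, with a median of -0.25, beside 16.5% and 12.3% of all genes.

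**Figure D2:**
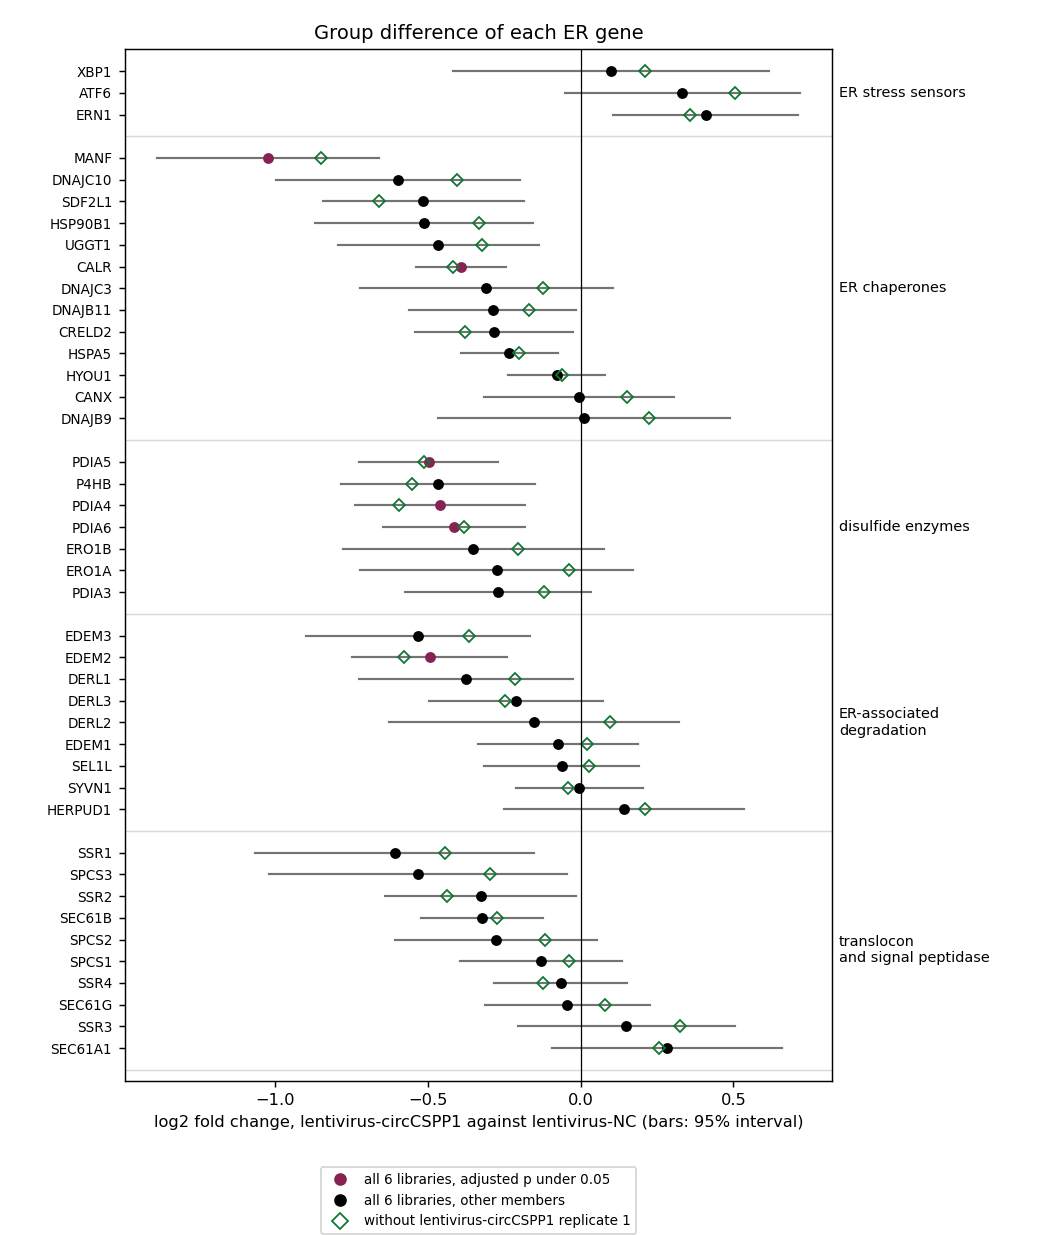
Log2 fold change of each ER gene between lentivirus-circCSPP1 and lentivirus-NC on the log2(FPKM + 1) scale (x axis), by class, with filled points and 95% intervals from all 6 libraries and open diamonds from the fit without lentivirus-circCSPP1 replicate 1. The 6 purple points passed an adjusted p of 0.05, and 35 of the 42 filled points lie below 0.

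Summed over the 42 genes, the control level was 5184 ± 56.7 FPKM and that of the lentivirus-circCSPP1 cells 4269 ± 189 FPKM (SD, n = 3), or 0.860% and 0.718% of all FPKM of a library. Most of it came from chaperones, at 2598 ± 30.8 and 2133 ± 188 FPKM, and disulfide enzymes, at 1475 ± 57.8 and 1104 ± 105 FPKM, and in both classes every lentivirus-circCSPP1 library was below every lentivirus-NC library. The sums of the degradation genes (244 ± 13.3 and 220 ± 21.1 FPKM), the translocon and signal peptidase genes (809 ± 65.6 and 747 ± 21.7 FPKM) and the sensors (57.6 ± 12.4 and 65.1 ± 6.46 FPKM) overlapped between the groups. A sum follows its most abundant genes. In lentivirus-NC and lentivirus-circCSPP1, the means were 764 and 582 FPKM for CALR and 541 and 385 FPKM for HSP90B1. They were 526 and 529 FPKM for CANX and 816 and 596 FPKM for P4HB. No test was run on the sums.

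**Figure D3:**
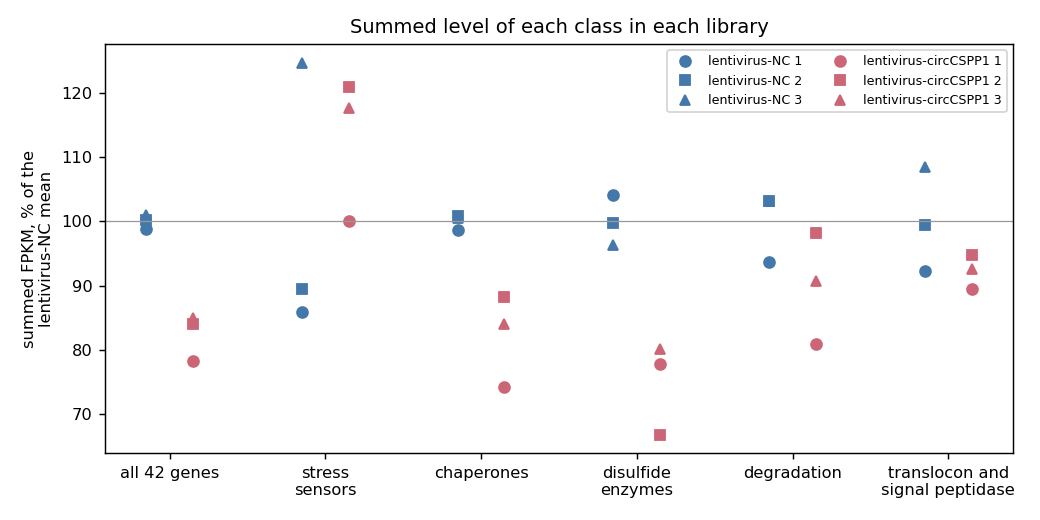
Summed FPKM of all 42 genes and of each class in each library, as a percentage of the mean of the 3 lentivirus-NC libraries (y axis, not starting at 0), with blue for lentivirus-NC, red for lentivirus-circCSPP1 and a marker shape per replicate number. The red points of all 42 genes, of the chaperones and of the disulfide enzymes lie below the blue ones, and those of the other 3 classes overlap them.

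None of the 3 members ERN1, ATF6 and XBP1 had an estimate below 0, and none passed the threshold with all 6 libraries. ERN1, the kinase and ribonuclease that splices XBP1 mRNA, was at 15.9, 14.5 and 13.9 FPKM in lentivirus-circCSPP1 replicates 1, 2 and 3 and at 10.7, 12.7 and 9.42 FPKM in lentivirus-NC. The groups did not overlap, and the log2 fold change was 0.41 (SE 0.130, limma adjusted p = 0.086). ATF6, a membrane-bound transcription factor released by cleavage in the Golgi, was at 5.72, 9.12 and 8.11 FPKM against 5.86, 6.11 and 5.36 FPKM. Only replicate 1 of lentivirus-circCSPP1 lay within the range of the controls, and the log2 fold change of 0.33 (adjusted p = 0.24 by limma) became 0.50 without it (adjusted p = 0.013). XBP1 mRNA was at 36.1, 46.0 and 45.8 FPKM against 32.9, 32.7 and 57.1 FPKM. The lentivirus-NC libraries spanned all 3 values of the other group, with a log2 fold change of 0.10 (95% interval -0.42 to 0.61, adjusted p = 0.82 by limma) and of 0.21 without lentivirus-circCSPP1 replicate 1 (adjusted p = 0.54), and gene-level FPKM does not show how much of the XBP1 mRNA was spliced. EIF2AK3, measured beside the 42 genes, was at 3.65 ± 0.360 FPKM in lentivirus-circCSPP1 and 4.04 ± 0.250 FPKM in lentivirus-NC (log2 fold change -0.12, 95% interval -0.38 to 0.14, adjusted p = 0.54 by limma), and the estimate was -0.06 without replicate 1.

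Among the 13 chaperones and partners, 12 estimates were below 0, beside 6648 of 12322 over all tested genes, with a median log2 fold change of -0.31. Of the 13, 2 fell past the threshold (15.4%, beside 6.66% of all tested genes). In 9 of the 13 (69.2%) every lentivirus-circCSPP1 library was below every lentivirus-NC library, beside 20.5% of all tested genes. MANF, a small secreted protein held in the ER lumen, showed the lowest estimate of the 42 genes. It was at 21.8, 31.6 and 31.7 FPKM in lentivirus-circCSPP1 replicates 1, 2 and 3 and at 52.5, 61.2 and 60.5 FPKM in lentivirus-NC, so that its mean was 2.05-fold lower. The log2 fold change was -1.02 (SE 0.156, limma adjusted p = 0.0095) and -0.85 without lentivirus-circCSPP1 replicate 1 (adjusted p = 0.0022). Its adjusted p was 0.056 without lentivirus-NC replicate 2. The gene lies on GRCh38 at chr3:51385047-51389397, plus strand (GENCODE release 29).

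CALR, the calcium-binding lectin calreticulin, was the most abundant of the chaperones. Its values were 605, 559 and 583 FPKM in lentivirus-circCSPP1 and 776, 767 and 750 FPKM in lentivirus-NC (chr19:12938578-12944489, plus strand). The groups stood far apart for their spread, with a log2 fold change of -0.39 (SE 0.063, limma adjusted p = 0.011), and the value without lentivirus-circCSPP1 replicate 1 was -0.42. Its adjusted p rose to between 0.056 and 0.074 when lentivirus-circCSPP1 replicate 3 or any 1 of the lentivirus-NC libraries was left out.

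HSPA5, the luminal Hsp70 known as BiP that also holds the sensors inactive, was lower in every lentivirus-circCSPP1 library without passing the threshold. The levels were 220, 240 and 231 FPKM against 267, 272 and 274 FPKM, a log2 fold change of -0.23 (SE 0.068, limma adjusted p = 0.067), and -0.20 without lentivirus-circCSPP1 replicate 1 (adjusted p = 0.020). HSP90B1, the ER Hsp90 known as GRP94, was at 294, 460 and 401 FPKM against 521, 566 and 537 FPKM. Here replicate 1 was the lowest library, and the log2 fold change of -0.51 (adjusted p = 0.073 by limma) became -0.33 without it (adjusted p = 0.019). SDF2L1, which works with HSPA5 and J-domain proteins, had its highest lentivirus-circCSPP1 value in replicate 1, at 43.5, 29.3 and 34.5 FPKM against 51.1, 49.4 and 52.2 FPKM. Its log2 fold change was -0.52 (adjusted p = 0.057 by limma) and -0.66 without replicate 1 (adjusted p = 0.0042).

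The other chaperones differed among themselves. UGGT1, which returns misfolded glycoproteins to the lectins, and DNAJC10, a J-domain reductase, had groups that did not overlap (log2 fold changes -0.47 and -0.60, limma adjusted p = 0.076 and 0.064). Without replicate 1 they were -0.32 and -0.40 and passed the threshold (adjusted p = 0.033 and 0.014). CRELD2 and DNAJB11 did not overlap either (-0.28 and -0.29, limma adjusted p = 0.14 and 0.16), and without replicate 1 CRELD2 was at -0.38 (adjusted p = 0.011) and DNAJB11 at -0.17 (adjusted p = 0.078). CANX, the membrane-bound relative of CALR, gave 421, 610 and 557 FPKM in lentivirus-circCSPP1 against 516, 515 and 546 FPKM. Its log2 fold change was -0.01 (95% interval -0.32 to 0.30), and 0.15 without replicate 1, so that the lectins CALR and CANX had different estimates, a difference that was not tested. HYOU1 (-0.08), DNAJC3 (-0.31, and -0.12 without replicate 1) and DNAJB9 (0.01, and 0.22 without it) also overlapped between the groups.

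**Figure D4:**
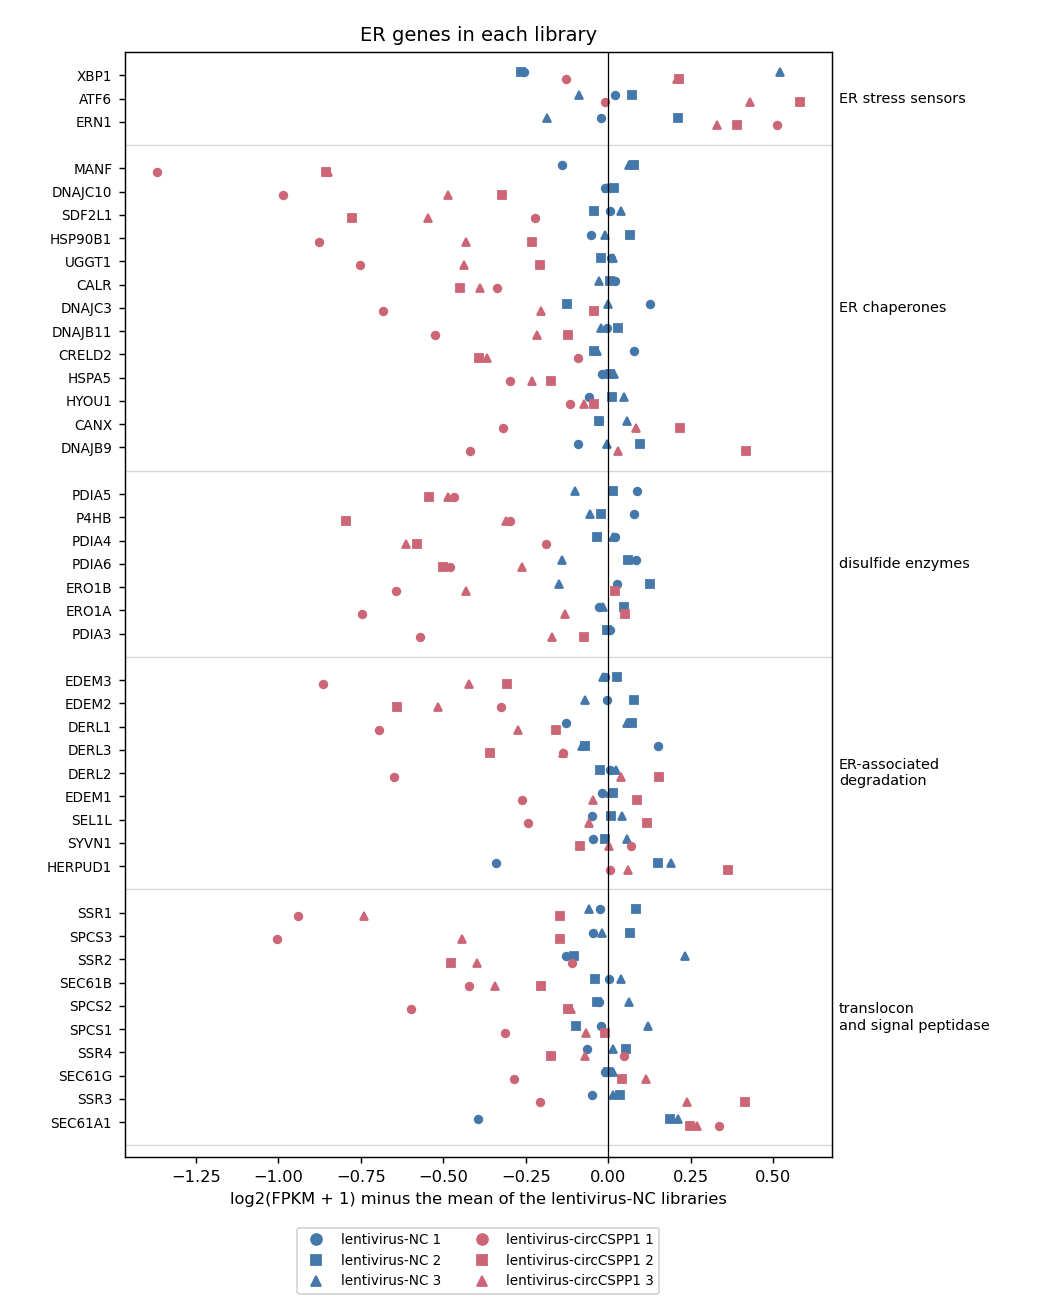
Each ER gene in each library as log2(FPKM + 1) minus the mean of the 3 lentivirus-NC libraries (x axis), by class, with blue for lentivirus-NC, red for lentivirus-circCSPP1 and a marker shape per replicate number. Replicate 1 of lentivirus-circCSPP1 (red circles) was the lowest of its group in 28 of the 42 genes and the highest in 13.

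All 7 estimates of the disulfide enzymes were below 0, with a median log2 fold change of -0.41. Of the 7, 3 fell past the threshold (42.9%, beside 6.66% of all tested genes). In 5 of the 7 genes (71.4%) every lentivirus-circCSPP1 library was below every lentivirus-NC library, beside 20.5% of all tested genes. PDIA5, a protein disulfide isomerase known to act on ATF6, was at 14.8, 14.0 and 14.6 FPKM in lentivirus-circCSPP1 and at 22.2, 21.1 and 19.4 FPKM in lentivirus-NC (chr3:123067062-123225227, plus strand). The log2 fold change was -0.50 (SE 0.097, limma adjusted p = 0.020). It passed the threshold without lentivirus-circCSPP1 replicate 1 (-0.51, adjusted p = 0.0080), and its adjusted p was 0.077 without lentivirus-circCSPP1 replicate 3 and 0.063 to 0.11 without any 1 lentivirus-NC library.

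PDIA6, an isomerase that binds HSPA5 and acts on ERN1, was at 169, 166 and 197 FPKM against 250, 246 and 214 FPKM (chr2:10783391-10837977, minus strand). The closest libraries of the groups, at 197 and 214 FPKM, were both replicate 3. Its log2 fold change was -0.41 (SE 0.0995, limma adjusted p = 0.039), with an adjusted p of 0.034 without lentivirus-circCSPP1 replicate 1 and of 0.058 to 0.16 without any other library. PDIA4, an isomerase with an added thioredoxin-like domain, was at 167, 127 and 124 FPKM against 193, 186 and 192 FPKM (chr7:149003062-149028641, minus strand). Replicate 1 was the highest library of its group, and the log2 fold change of -0.46 (SE 0.119, limma adjusted p = 0.049) became -0.60 without it (adjusted p = 0.0013), while without any other library the adjusted p was 0.095 to 0.16.

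P4HB, the founding protein disulfide isomerase, had the highest mean FPKM of the 42 genes, 706 FPKM. It was at 663, 469 and 657 FPKM in lentivirus-circCSPP1, with replicate 2 the lowest, and at 859, 803 and 785 FPKM in lentivirus-NC. Although the groups did not overlap, the log2 fold change of -0.47 (SE 0.136) had a limma adjusted p of 0.068, and of 0.029 without replicate 1. PDIA3, the isomerase that partners the lectins, had a log2 fold change of -0.27, and the oxidases ERO1A and ERO1B, which supply the oxidizing equivalents, had -0.28 and -0.35 with overlapping groups. Without replicate 1 these estimates were nearer 0, at -0.12 for PDIA3, -0.04 for ERO1A and -0.21 for ERO1B.

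**Figure D5:**
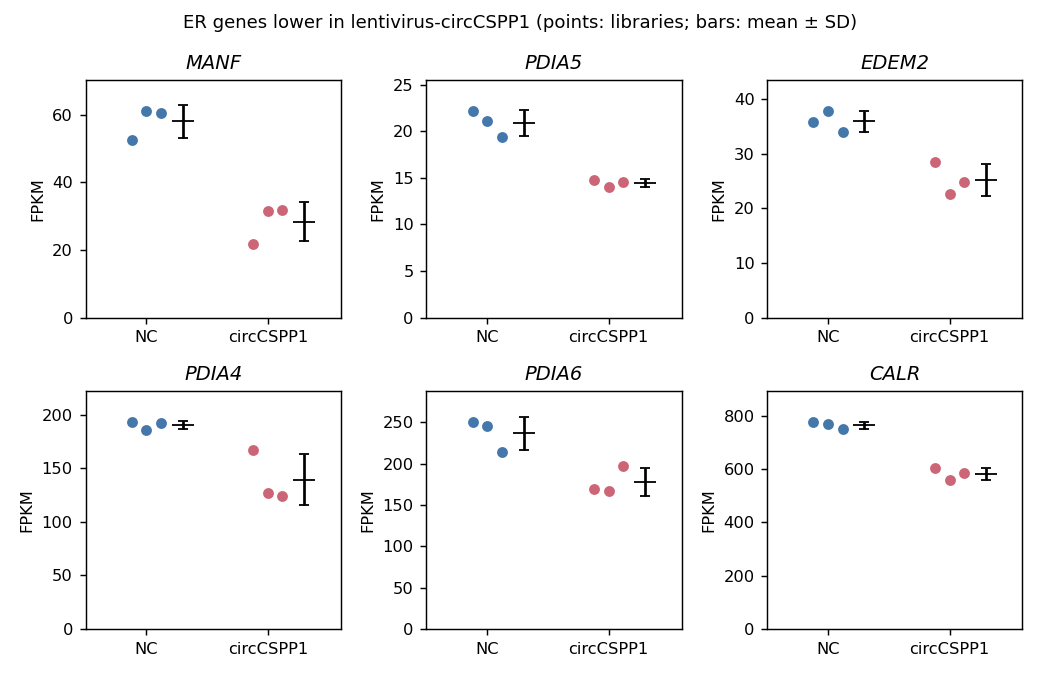
FPKM (y axis, from 0) of the 6 ER genes that passed a limma adjusted p of 0.05, with a point per library in the order of replicate number, and the mean ± SD of each group of 3 beside it. In all 6 panels the 3 lentivirus-circCSPP1 points lie below the 3 lentivirus-NC points, and the ratio of the means is largest for MANF, 28.4 ± 5.67 against 58.1 ± 4.82 FPKM.

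Of the 9 degradation genes, 8 had an estimate below 0, with a median log2 fold change of -0.15, which was -0.04 without lentivirus-circCSPP1 replicate 1 and -0.09 with the GC and length correction. Of the 9, 1 fell past the threshold with all 6 libraries (11.1%, beside 6.66% of all tested genes). This was EDEM2, a mannosidase that starts the trimming that marks glycoproteins for removal. It was at 28.4, 22.6 and 24.8 FPKM in lentivirus-circCSPP1 and at 35.8, 37.9 and 34.1 FPKM in lentivirus-NC (chr20:35115357-35147364, minus strand). The log2 fold change was -0.50 (SE 0.109, limma adjusted p = 0.029), and -0.58 without lentivirus-circCSPP1 replicate 1 (adjusted p = 0.0047), while without any other library its adjusted p was 0.058 to 0.13. The related mannosidase genes EDEM3 (-0.53, groups not overlapping, adjusted p = 0.070 by limma) and EDEM1 (-0.07, adjusted p = 0.72 by limma) lay on either side of it. Without replicate 1, EDEM3 passed the threshold (-0.37, adjusted p = 0.021) and EDEM1 was at 0.02.

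SEL1L and SYVN1, at the core of the membrane ligase complex, had estimates near 0. SEL1L, the adaptor and the most abundant of the degradation genes, was at 37.9, 48.8 and 43.1 FPKM against 43.5, 45.2 and 46.3 FPKM, a log2 fold change of -0.06 (95% interval -0.32 to 0.19), and 0.03 without lentivirus-circCSPP1 replicate 1. SYVN1, the ubiquitin ligase HRD1, had -0.01 (95% interval -0.21 to 0.20), and -0.04 without that replicate. HERPUD1, which recruits substrates to the ligase, was at 37.4, 48.2 and 38.9 FPKM against 29.2, 41.5 and 42.7 FPKM, with a log2 fold change of 0.14, and lentivirus-NC replicate 1 was the lowest library. The derlins, membrane proteins of the exit channel, had log2 fold changes of -0.38 (DERL1), -0.15 (DERL2) and -0.21 (DERL3). Without replicate 1 these were -0.22, 0.10 and -0.25. The groups did not overlap for DERL1 and DERL3 (limma adjusted p = 0.15 and 0.30) and overlapped for DERL2. DERL3 had the lowest level of the 42 genes, 1.23 FPKM.

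None of the 10 translocon and signal peptidase genes passed the threshold with all 6 libraries, beside 6.66% (lower) and 4.69% (higher) of all tested genes. Of the 10, 8 had an estimate below 0, with a median log2 fold change of -0.20 that was -0.12 without lentivirus-circCSPP1 replicate 1. The subunits of the Sec61 channel itself had estimates of different sign. SEC61A1, which forms the pore, was at 149, 141 and 143 FPKM in lentivirus-circCSPP1 and at 89.6, 135 and 137 FPKM in lentivirus-NC. All values of the overexpressing cells were above those of the controls, but the size of the gap came from lentivirus-NC replicate 1. The log2 fold change of 0.28 (limma adjusted p = 0.30) was 0.08 without that library (adjusted p = 0.68). SEC61B was lower in every lentivirus-circCSPP1 library, at 68.1, 79.3 and 71.9 FPKM against 91.7, 88.8 and 94.0 FPKM (log2 fold change -0.32, adjusted p = 0.053 by limma, and -0.27 with adjusted p = 0.024 without replicate 1), and SEC61G overlapped (-0.04, and 0.08 without it).

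The TRAP complex, which assists insertion of some signal peptides, also had estimates on both sides of 0. SSR2, the most abundant gene of this class, was at 237, 184 and 194 FPKM against 234, 238 and 301 FPKM, with replicate 1 of lentivirus-circCSPP1 above the lowest control library. Its log2 fold change was -0.33 (limma adjusted p = 0.16) and -0.44 without that replicate (adjusted p = 0.035). SSR1 had -0.61 with groups that did not overlap (adjusted p = 0.088 by limma), SSR4 had -0.07, and -0.12 without replicate 1, and SSR3 had 0.15, which was 0.33 without lentivirus-circCSPP1 replicate 1 (adjusted p = 0.018). The signal peptidase subunits SPCS1, SPCS2 and SPCS3 had log2 fold changes of -0.13, -0.28 and -0.53, none past the threshold, and of -0.04, -0.12 and -0.30 without replicate 1.

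The members that fell included genes with and without a match in the promoter window. Of the 11 genes with an ERSE or ERSE-II match, 2 fell (CALR and PDIA6), 9 estimates were below 0, and the median log2 fold change was -0.28. Of the 27 genes with a window and neither match, 4 fell, 22 estimates were below 0, and the median was -0.29. Over all tested genes 6.66% fell, and 6648 of 12322 estimates were below 0. Without lentivirus-circCSPP1 replicate 1, 6 of the 11 and 10 of the 27 fell, beside 15.4% of all genes tested in that fit, with medians of -0.21 and -0.12. HSPA5 and HSP90B1, whose ERSE sequences are printed above, had -0.23 and -0.51, HYOU1 with its ERSE-II had -0.08, and HERPUD1 and XBP1 had estimates above 0.

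In a longer list of 104 other ER genes, 98 were tested, 4 fell (4.08%, beside 6.66% of all tested genes) and 3 rose (beside 4.69%). Of their estimates, 54 were below 0 and 44 above, and the median log2 fold change was -0.04. The difference from the 42 genes was not tested. Without lentivirus-circCSPP1 replicate 1, 10 of the 98 fell and 18 rose, beside 15.4% and 13.1% of all genes tested in that fit, with a median of 0.02. The 3 that rose with all 6 libraries were ATF4, DDIT3 and PPP1R15A, and whether EIF2AK3 had a part in this was not tested. ATF4, a transcription factor, was at 392, 380 and 396 FPKM in lentivirus-circCSPP1 and at 301, 302 and 286 FPKM in lentivirus-NC (log2 fold change 0.40, limma adjusted p = 0.011). DDIT3 (CHOP), a transcription factor of prolonged stress, was at 69.0, 84.9 and 75.3 FPKM against 24.4, 28.2 and 20.9 FPKM (1.61, limma adjusted p = 0.0015). PPP1R15A, which directs dephosphorylation of the translation factor, was at 101, 97.8 and 91.1 FPKM against 31.5, 31.4 and 27.0 FPKM (1.66, limma adjusted p = 0.00056). In each of these genes every lentivirus-circCSPP1 library was above every lentivirus-NC library, beside 16% of all tested genes. The 3 genes are given here because they passed the threshold, so this order is not a further result.

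The 4 that fell were 3 folding factors, MLEC, a lectin of the ER (-0.53), TXNDC5, a disulfide isomerase (-0.35), and CNPY4 (-0.69), and OST4, a subunit of oligosaccharyltransferase (-0.61), with limma adjusted p of 0.013 to 0.022. By list, 3 of 33 other folding factors, 0 of 27 other degradation factors, 1 of 27 other targeting, translocation and glycosylation factors and 0 of 11 other sensors and transcription factors fell, beside 6.66% of all tested genes. Without replicate 1 the counts were 4, 2, 3 and 1, beside 15.4% of all genes tested in that fit. With all 6 libraries, 19 of the 33 other folding factors had estimates below 0 and 14 above, with a median log2 fold change of -0.08. Of these 33, 7 (21.2%) were lower in every lentivirus-circCSPP1 library, beside 20.5% of all tested genes.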

How the data were processed

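Poly(A) RNA of DU145 cells was measured in 6 libraries, and samples were grouped by their titles. The authors deposited 1 table of FPKM values, rounded to 2 decimals, with 1 row for each of 19727 genes. The submitters' processing notes name hg38, while the aligner, counter and annotation are not given in the sources used here. FPKM is a share of the library, so a gene also moves when abundant genes change: the 20 highest genes held 12.0% to 12.1% of summed FPKM in lentivirus-circCSPP1 and 14.9% to 15.2% in lentivirus-NC. There were 0 unused columns of sample values.

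The 12322 genes that averaged 1 FPKM or more (7405 were not tested) were compared as log2(FPKM + 1) with limma 3.58.1 in R 4.3.3 (two-sided, trended eBayes, no covariate) and Benjamini-Hochberg adjustment over all of them. A fold change on this scale understates that of low genes. Depth came from whole-number steps in genes with transcripts under 800 nt, and lengths, GC content and coordinates from GENCODE release 29, by Ensembl identifier. Motifs were searched with Python 3.11.15, and figures drawn with matplotlib 3.10.9.

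The members and lists were chosen with earlier results of these data known. The rule for named genes took every member past an adjusted p of 0.05, the highest member of each class, HSPA5, XBP1, ATF6, ERN1, EIF2AK3, CSPP1, ATF4, DDIT3, and in each list of other ER genes the 3 largest changes in each direction past the threshold. All other members are named outside this rule, after their values were seen, so that each of the 42 is accounted for. In simulated data for the comparison (12303 genes tested), the fit recovered 4.00%, 20.4%, 75.5% and 91.7% of genes changed by 0.3, 0.5, 1 and 2 on the log2 scale, and called 0.0496% of unchanged genes. Only 48 to 50 genes were changed at each size, fewer than were called in these data. The simulated noise was independent between genes and held no GC trend, so these shares may differ in the measured libraries. The 16 alternatives were other pseudocounts (0.1, 0.01), filters (none, 5 FPKM), scalings (TPM, median-ratio, quantile), variance settings (no moderation, robust), the replicate number as a block, and each library left out. A loess correction for GC content and length was added after seeing the data. One list of marker genes is not reported here.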

Additional observations from a re-analysis of the deposited data

How the results depend on the processing

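With 3 libraries a group, in simulation, changes of 0.5 on the log2 scale were mostly missed. That simulation changed fewer genes than were called here and held no GC trend, so the share missed in these data may differ. The members' median log2 fold change stayed below 0 under all 17 alternatives (-0.33 to -0.19), and 29 of the 42 genes had estimates below 0 and 4 above 0 in each of these fits, while 9 changed sign. MANF kept its call under 15 of the 17, CALR under 13, PDIA5 under 12, PDIA6 and EDEM2 under 8 and PDIA4 under 4, and 18 members passed the threshold only under an alternative. The cause of these shifts was not tested.

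Members that fell numbered 6 in the reported fit, 3 with median-ratio scaling, 10 with quantile normalization, 3 without moderation of the variance, 20 with the GC and length correction and 0 to 16 with a library left out; 3 rose with the GC and length correction and 0 to 2 with a library left out. Other ER genes that fell (4 in the reported fit) numbered 2 without moderation, 13 with the GC and length correction and 0 to 10 with a library left out, and those that rose (3) numbered 5 with TPM, 10 with the GC and length correction and 2 to 18 with a library left out. Over all genes, those that fell (821) numbered 541 with a mean of at least 5 FPKM, 453 without moderation, 2028 with the GC and length correction and 150 to 1894 with a library left out, and those that rose (578) numbered 381 without moderation, 1510 with the GC and length correction and 143 to 1620 with a library left out.

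With the replicate number as a block, 3 members fell, 2 of them among the 6, and 364 genes rose over all genes. The replicate numbers were not shown to pair the libraries: deviations of same-numbered libraries from their group means correlated at 0.073, 0.0065 and 0.057, and lentivirus-circCSPP1 replicate 2 correlated more with lentivirus-NC replicate 3 (0.036) than with its own number.

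Estimates that changed sign all belonged to genes that did not pass the threshold. CANX was at 0.011 with TPM, 0.036 with median-ratio scaling, 0.033 with the GC and length correction and -0.12 to 0.15 with a library left out, and SYVN1 at 0.012 with TPM, 0.036 with median-ratio scaling and -0.042 to 0.035 with a library left out. With a library left out, SEL1L ran from -0.15 to 0.028, DERL2 from -0.31 to 0.095, EDEM1 from -0.15 to 0.019, SEC61G from -0.12 to 0.078, DNAJB9 from -0.19 to 0.22, XBP1 from -0.034 to 0.36 and HERPUD1 from -0.029 to 0.24. DERL3 was below the filter at 5 FPKM and was not tested there.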
